A study of Mus musculus with 64 samples.

Results

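TCF7L2 binding was compared between naive embryonic stem cells (ESCs) and caudal epiblast-like cells (CEpiLCs) of the wild-type HM1 mouse line, and the members were the 6 ChIP-seq libraries, of 64 samples in the series, made from these cells with an antibody labelled TCF4, an older name of TCF7L2. There were 3 libraries per condition, labelled replicates 1, 2 and 3, all collected at 72 h. All cells had first been kept in serum and LIF. The naive ESCs were then grown in 2i, which holds 3 µM CHIR and 500 nM PD0325901. The CEpiLCs received 10 ng/ml bFGF and 5 µM LGK974, with CHIR99021 added for the last day. A separate set of 6 TCF7L2 libraries came from a SOX2-TetON line put through that caudal regime. These cells were a single clone that lacked endogenous Sox2 (Sox2-/-) and carried a doxycycline-inducible SOX2 transgene at the HPRT locus. They were held with 1 µg/ml doxycycline (SOX2-ON, 3 libraries) or without it (SOX2-OFF, 3 libraries). Every condition thus contained a GSK3 inhibitor, while LGK974 and bFGF were in the caudal regime alone and PD0325901 was in 2i alone, so the cell state cannot be told apart from the medium.

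TCF7L2 is one of 4 TCF/LEF proteins, which bind DNA through an HMG box and recruit β-catenin to WNT target genes. GSK3 marks β-catenin for destruction, so the GSK3 inhibitor CHIR99021 switches the pathway on from within the cell, and LGK974 prevents the cells from secreting their own WNT ligands. Without β-catenin, TCF proteins can hold target genes silent. In naive ESCs, relief of that repression helps to keep the pluripotency genes on. In the caudal epiblast, WNT signalling switches on T, Cdx and Hox genes. The comparison asks where TCF7L2 sat in each.

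The values are peaks, regions where the reads of a library exceeded its control. Each has a fold, the enrichment at its summit, and a p-value. Lists had been called library by library and ran from 4627 peaks (CEpiLC replicate 1) to 466286 (CEpiLC replicate 2), with 29611, 73121 and 452935 in the 3 naive ESC libraries and 420469 in CEpiLC replicate 3. Read totals were not given in the sources used here, so the depth behind these lists is unknown. Each list was therefore reduced to its 4134 most significant peaks, the length of the shortest TCF7L2 list of the 4 conditions. That kept 89.3% of the CEpiLC replicate 1 list but 0.887% of the CEpiLC replicate 2 list. Median folds of the kept peaks were 7.16, 8.74 and 10.0 in naive ESCs and 6.83, 12.4 and 11.4 in CEpiLCs, so that replicate 1 was the lowest in both conditions. Below, absence of a peak means absence from the list of 4134 unless the full list is named. A peak found in more cells and one bound more firmly in each cell cannot be told apart in such libraries, and the labelled cell states were not checked against expressed markers here.

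The strongest sites found in both cell states lay mainly at promoters with a CG-rich sequence. The 6 sites with the highest median fold among the 945 found in all 6 libraries were at Banp, Zzz3, Cdk12, Supt5, Denr and Qrich1. The Banp site had folds of 235, 318 and 290 in naive ESCs and 81.9, 448 and 309 in CEpiLCs, which overlapped. Banp encodes a nuclear protein known to bind the sequence CTCGCGAG. The site in an intron of Zzz3, 1189 bp from the gene start, had 192, 297 and 265 in naive ESCs and 67.2, 308 and 262 in CEpiLCs. At Supt5, which encodes a transcription elongation factor, folds were 144, 212 and 177 in naive ESCs and 65.6, 317 and 246 in CEpiLCs. CEpiLC replicate 1 was the lowest library at all 6 sites, and the other CEpiLC libraries lay among or above the naive ESC values. Each of the 6 sites held TCTCGCG, called the CGCG core here, within 75 bp of the summit. The following stretches are given to show that element at the strongest peaks (GRCm38, plus strand, 30 bases, capitals mark TCTCGCG or CTCGCGAG on either strand, and 151 bases for Cdk12, a transcription kinase gene):
Banp (chr8:121950571-121950600): cggctgcttcTCTCGCGAGgacggacgcca
Zzz3 (chr3:152396644-152396673): gcgggtcggtatCGCGAGAtctccggactc
Supt5 (chr7:28338755-28338784): tgagcgctcTCTCGCGAGAactggcgcgtc
Qrich1 (chr9:108517049-108517078): cgacgctccggtTCTCGCGAGAagggcctt
Cdk12 (chr11:98202619-98202769): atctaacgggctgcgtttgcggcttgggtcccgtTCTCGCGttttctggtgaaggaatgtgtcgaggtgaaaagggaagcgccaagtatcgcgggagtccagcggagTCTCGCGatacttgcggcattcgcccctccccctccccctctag
The 8-base palindrome CTCGCGAG lay at Banp, Supt5 and Qrich1, and the shorter core alone at Zzz3, Cdk12 and Denr. Peaks of β-catenin and TCF7L1 were present at none of the 6 sites in any library. SOX2 had a peak at Banp in 1 naive ESC and 3 CEpiLC libraries and at Cdk12 in 3 CEpiLC libraries. LEF1 had one at Cdk12 in 1 naive ESC and 2 CEpiLC libraries.

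The CGCG core faded down the lists, and the TCF sequence was more frequent in the middle of the lists than at the top. Within 100 bp of the summit, TCTCGCG on either strand was found in 88%, 97% and 97% of the 100 strongest peaks of the naive ESC libraries and in 88%, 97% and 93% of those of the CEpiLC libraries. From 1001 to 2000 the range over the 6 libraries was 6.70% to 15.3%. The TCF/LEF sequence, CTTTGAA or CTTTGAT on either strand, lay in 2%, 4% and 4% of the top 100 in naive ESCs and in 9%, 6% and 9% in CEpiLCs. At ranks 1001 to 2000 it lay in 22.9% to 41.2%, the highest share of the list in 5 of the 6 libraries, with naive ESC replicate 3 higher at ranks 501 to 1000 (30%). Below rank 2000 it lay in 13.4% to 26.7%. Of 20150 RefSeq promoters (GRCm38, 300 bases each), 3.61% held the core and 7.47% the TCF sequence. The ranking was not shared by the other immunoprecipitations of the same cells. In the top 100 peaks of the β-catenin libraries, 68% to 85% held the TCF sequence and 0% the core, and the core was in 0% of those of LEF1 and TCF7L1 and in at most 1% of those of SOX2. In the 6 TCF7L2 libraries of the SOX2-TetON line it was in 74% to 94% of the top 100. Whether the peaks with the core were bound by TCF7L2 itself or by another protein that the antibody reached was not tested. With the peaks holding the core left out, the counts of CEpiLC-only and naive-only sites given next stayed within 1.5 times their values.

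**Figure D1:**
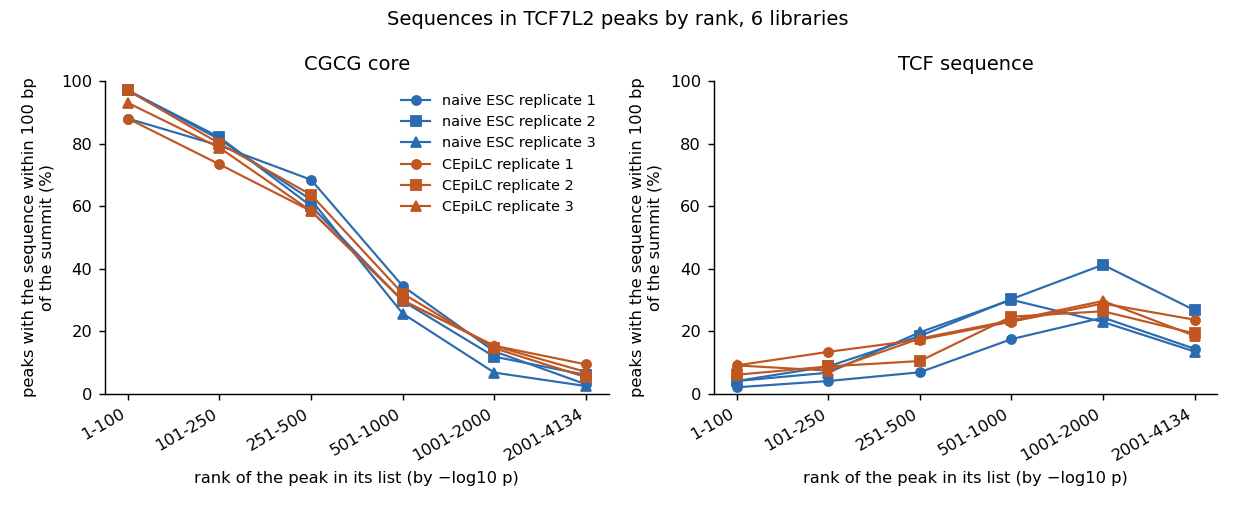
Share of peaks with the CGCG core (left) or the TCF sequence (right) within 100 bp of the summit (vertical axis, %) by rank in the list (horizontal axis), with 1 line per library. In the top 100 peaks the core was in 88% to 97% and the TCF sequence in 2% to 9%. The core fell with rank in all 6 libraries.

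TCF7L2 occupied partly different sites in the 2 cell states. Merging the 6 lists gave 13903 sites, of which 420 had a peak in 3 of 3 CEpiLC and 0 of 3 naive ESC libraries (CEpiLC-only, 3.02%). The opposite pattern was seen at 161 (naive-only, 1.16%), and 945 (6.80%) had a peak in all 6. Most sites, 9823 (70.7%), were seen in 1 library. No test was made on single sites, since 3 libraries against 3 cannot give an exact permutation p below 0.1. Absence was often relative: in the full lists of the other condition, no peak at all overlapped 125 of the CEpiLC-only sites (29.8%) and 66 of the naive-only sites (41.0%). The counts rested on the libraries entered. Without replicate 1 of both conditions they were 737 CEpiLC-only and 456 naive-only, without replicate 2 the CEpiLC-only count was 928, and without replicate 3 they were 660 and 301.

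The 3 classes lay at different places. CEpiLC-only sites were at promoters (within 1000 bp of a protein-coding gene start) in 175 cases (41.7%), in introns in 90 and between genes in 140, with a median distance to the nearest start of 3697 bp. Naive-only sites were at promoters in 12 cases (7.45%), in introns in 79 and between genes in 66, at a median of 24335 bp. Sites in all 6 were at promoters in 713 cases (75.4%), at a median of 146 bp. Over all sites the promoter share was 25.9% and the median 15859 bp. The CEpiLC-only class thus stood between the distal naive-only class and the promoter-rich shared class. The libraries differed as well: summits at promoters were 33.2%, 32.1% and 24.3% in naive ESCs and 52.4%, 45.6% and 50.6% in CEpiLCs. Means were 29.9 ± 4.84% and 49.5 ± 3.54% (SD, n = 3 each), a difference of 19.7 percentage points without overlap (two-sided exact permutation test, p = 0.1, the smallest possible). With all deposited peaks the difference was 13.9 (exact permutation p = 0.8).

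Peaks of CEpiLC replicates overlapped more with each other than with those of naive ESC libraries. The Jaccard index is the bases covered by both of 2 lists over the bases covered by either, so peak width enters it. Median widths of the kept peaks were 142, 254 and 303 bp in naive ESCs and 259.5, 384.5 and 305.5 bp in CEpiLCs. The index was 0.319 to 0.375 for pairs of CEpiLC libraries, 0.181 to 0.252 for pairs of naive ESC libraries and 0.161 to 0.252 between conditions. The mean was 0.281 within and 0.199 between conditions, a difference of 0.0825 (two-sided exact permutation test over libraries, p = 0.1). Every CEpiLC pair lay above the between-condition pairs, and 2 of the 3 naive ESC pairs lay within their range. With all deposited peaks the difference was -0.00852 (exact p = 0.6).

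Both differential classes were rich in the TCF sequence and the shared class in the CGCG core. TCF matches lay within 100 bp of the summit at 38.3% of CEpiLC-only, 54.0% of naive-only and 11.3% of shared sites, against 7.1% to 7.5% in windows 5000 bp away. Away from promoters the shares were 55.1% (135 of 245), 57.7% (86 of 149) and 33.2% (77 of 232). At promoters they were 14.9% (26 of 175), 8.33% and 4.21% (30 of 713). The core was at 7.38% of CEpiLC-only, 9.32% of naive-only and 57.7% of shared sites. Over all 13903 sites the TCF sequence was at 20.0% and the core at 7.60%, so the CEpiLC-only core share lay near the whole. The SOX sequence, CATTGT or CTTTGT, separated the differential classes: it lay at 19.5% of CEpiLC-only sites, below the 25.2% of their flanks, and at 50.3% of naive-only sites, above the 27.0% of theirs. Away from promoters it was at 22.9% (56 of 245) of CEpiLC-only and 51.7% (77 of 149) of naive-only sites. At promoters these were 14.9% (26 of 175) and 33.3% (4 of 12), and the flanks were not split by place. Over all sites the SOX sequence was at 25.6%. Its form CTTTGT shares the bases CTTTG with the TCF sequence, and which protein family bound such matches was not tested. The octamer ATGCAAAT, bound by POU proteins such as OCT4, was at 2.1% of CEpiLC-only and 8.7% of naive-only sites, against 1.96% of all sites.

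**Figure D2:**
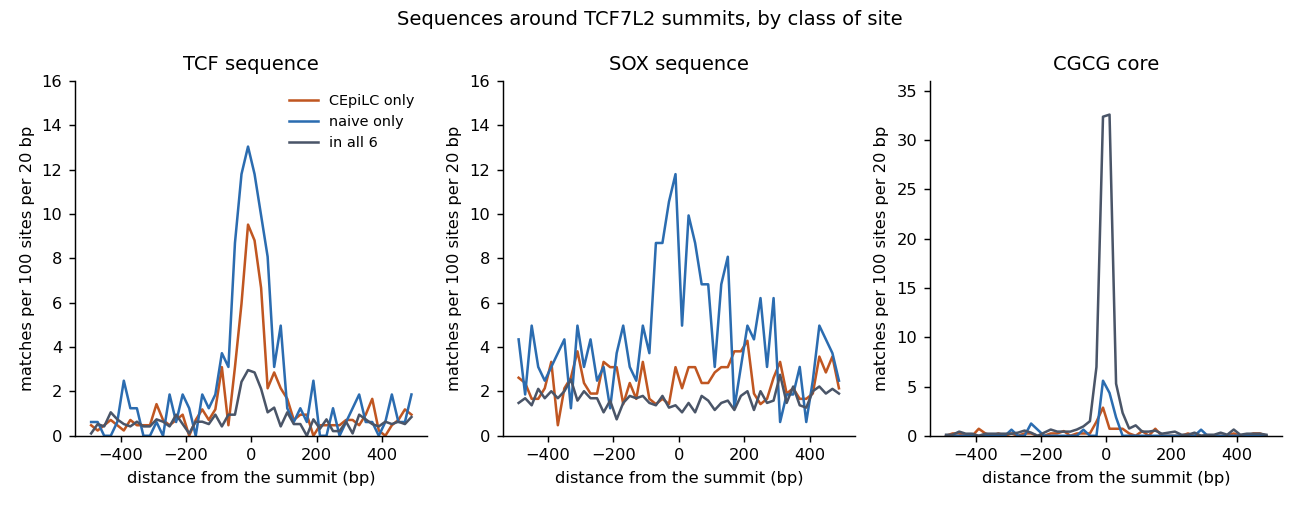
Matches per 100 sites per 20 bp (vertical axis) against the distance from the summit in bp (horizontal axis) for the TCF sequence, the SOX sequence and the CGCG core, with 1 line per class of site. The TCF sequence peaked at the summit in both differential classes (9.17 and 12.4 in the bins next to the summit), the SOX sequence in the naive-only class (8.39 against 3.01 at 300 to 500 bp), and the core in the shared class (32.5).

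Tested over libraries rather than sites, TCF content overlapped between the cell states. Peaks with the TCF sequence made up 16%, 28.9% and 17.6% of the naive ESC lists and 23.7%, 20.4% and 21.1% of the CEpiLC lists, with a mean difference of 0.862 percentage points (two-sided exact permutation test, p = 1). Those with the SOX sequence made up 23.9%, 30.7% and 26.7% in naive ESCs and 20.3%, 18.4% and 17.4% in CEpiLCs. These did not overlap, and the mean fell by 8.38 percentage points (exact permutation p = 0.1, adjusted p = 0.24 over 12 sequences). With all deposited peaks the difference was -2.88 and the groups overlapped (exact permutation p = 0.3). The sequences of ESRRB, FOXH1, AP-1 and the OCT4 and SOX2 pair were also lower in every CEpiLC library, with the same p values. For ESRRB, a naive pluripotency factor, the share was 0.661% in naive ESCs and 0.194% in CEpiLCs. Windows 5000 bp away held it in 0.568%, 0.568% and 0.556% of cases in naive ESCs and 0.762%, 0.593% and 0.654% in CEpiLCs. For SOX these were 26.6%, 26.9% and 27.2% in naive ESCs and 25.5%, 27.1% and 25.6% in CEpiLCs. Shares of FOXH1 and AP-1 lay below such windows in every library, and those of the OCT4 and SOX2 pair above them. No sequence passed 0.05, which 3 libraries against 3 cannot reach.

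β-catenin divided each class in 2. Of the CEpiLC-only sites, 262 had a β-catenin peak in at least 2 of 3 CEpiLC libraries. Of these, 148 (56.5%) held the TCF sequence, 57 (21.8%) were at promoters and 3 held the CGCG core. The other 158 held the TCF sequence in 13 cases (8.23%), were at promoters in 118 (74.7%) and held the core in 28 (17.7%). Of the naive-only sites, 131 had β-catenin in naive ESCs and 87 of them (66.4%) held the TCF sequence, while the 30 without it held the sequence in 0 cases. Of the shared sites, 149 had β-catenin in CEpiLCs and 92 of these (61.7%) held the TCF sequence. The 796 shared sites without it held the TCF sequence in 15 cases (1.88%) and the core in 531 (66.7%). In each class, TCF matches were thus found mainly where β-catenin was, and core matches mainly where it was not.

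The other TCF/LEF proteins and SOX2 followed the cell state at the differential sites. At CEpiLC-only sites, TCF7L1, the family member best known as a repressor, had a peak at 12.1%, 8.3% and 9.5% of sites in its naive ESC libraries and at 31.2%, 46.9% and 46.7% in its CEpiLC libraries. The first of these lists held 1628 peaks, fewer than the 4134 of all the others, which applies to each TCF7L1 value of CEpiLC replicate 1. LEF1, an activator of the family, was at 1.0%, 10.2% and 3.1% against 50.7%, 53.1% and 52.6%. SOX2, an HMG-box protein of both cell states, was at 6.0%, 4.3% and 4.8% against 33.3%, 36.9% and 47.6%. All 3 were higher in every CEpiLC library. At naive-only sites the order was the opposite for TCF7L1, with 78.3%, 78.9% and 80.1% in naive ESCs and 1.9%, 21.7% and 9.9% in CEpiLCs, and for SOX2, with 47.8%, 60.9% and 59.0% against 14.3%, 14.9% and 11.2%. LEF1 was uneven there, at 4.3%, 72.0% and 33.5% of sites in naive ESCs and 18%, 16.8% and 10.6% in CEpiLCs, and those groups overlapped. None of the 4 proteins was present in at least 2 libraries of CEpiLCs at 31.2% of CEpiLC-only sites and 77.5% of shared sites, or of naive ESCs at 17.4% of naive-only sites. Over all 13903 sites these shares were 79.4% in CEpiLCs and 83.2% in naive ESCs, so the shared class lay near the whole.

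**Figure D3:**
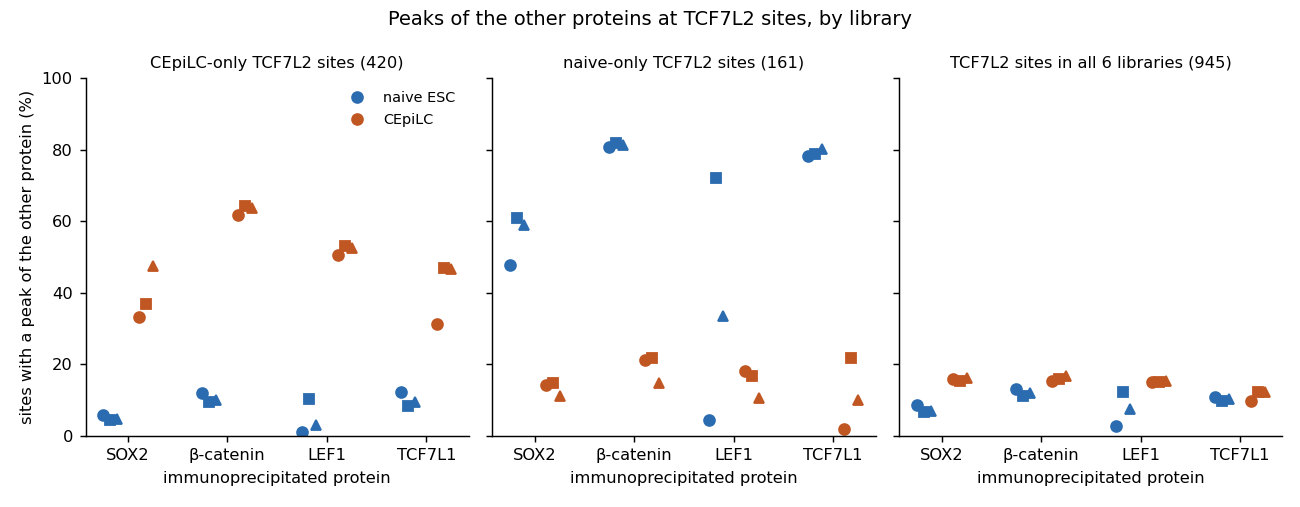
Share of TCF7L2 sites of each class (vertical axis, %) with a peak of SOX2, β-catenin, LEF1 or TCF7L1 (horizontal axis). Each point is 1 library (circle, square and triangle for replicates 1, 2 and 3). At CEpiLC-only sites β-catenin was at 61.7% to 64.3% in CEpiLCs and 9.5% to 11.9% in naive ESCs, and at sites in all 6 TCF7L2 libraries it was at 11.1% to 16.7% in both.

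The converse question used sites chosen without TCF7L2: those with a peak in all 3 libraries of 1 condition and none of the other for another protein. For each protein these were taken from equal-length lists of its own, with 1628 peaks per library (TCF7L1), 4443 (LEF1), 10930 (β-catenin) or 20000 (SOX2), so that absence means absence from those lists. A class index gave, per TCF7L2 library, the log2 odds of a peak at CEpiLC-only sites minus that at naive-only sites of the other protein. To each count 0.5 was added. For β-catenin (2777 CEpiLC-only and 3155 naive-only sites) the mean index was 6.86 ± 1.16 in CEpiLCs and -2.06 ± 1.25 in naive ESCs (SD, n = 3), a difference of 8.92. For SOX2 (2437 and 2421 sites) it was 6.98 ± 1.26 and -0.63 ± 0.92, a difference of 7.62, and naive ESC replicate 1 was above 0 at 0.40. For TCF7L1 (275 and 755 sites) it was 7.44 ± 0.96 and -2.68 ± 1.76, a difference of 10.11. The groups did not overlap for any of the 3 (two-sided exact permutation test, p = 0.1 each, adjusted p = 0.1). TCF7L2 peaks of the CEpiLC libraries lay at 3, 11 and 5 naive-only sites of β-catenin and at 1, 5 and 5 of SOX2. For TCF7L1 these were 15, 18 and 8, so the CEpiLC indices rest on small counts. LEF1 had 5 naive-only sites, too few for an index. Of its 1355 CEpiLC-only sites, TCF7L2 had a peak at 37.3%, 28.8% and 33.6% in CEpiLCs and at 4.50%, 7.31% and 3.03% in naive ESCs. All these libraries came from the same cell states, so the likeness covers everything that differed between them.

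TCF7L2 in the SOX2-TetON line, which had no part in choosing the sites, differed between SOX2-ON and SOX2-OFF. CEpiLC-only sites had a TCF7L2 peak at 14.3%, 18.3% and 24.0% of sites in SOX2-ON and at 33.1%, 47.4% and 37.9% in SOX2-OFF. Naive-only sites had one at 19.9%, 31.7% and 38.5% in SOX2-ON and at 6.83%, 14.9% and 10.6% in SOX2-OFF. Over all 13903 sites these shares were 11.03%, 13.02% and 16.34% in SOX2-ON and 14.23%, 17.22% and 14.16% in SOX2-OFF, which overlapped. At CEpiLC-only sites every library lay above its own share of all sites, by less in SOX2-ON. At naive-only sites every SOX2-ON library lay above its share of all sites and every SOX2-OFF library below. Neither differential class overlapped between the conditions. Sites in all 6 wild-type libraries were held in both, at 86.6%, 91.0% and 96.2% and at 94.5%, 96.9% and 94.9%. The CEpiLC-only share minus the naive-only share was -11.1 ± 4.83 percentage points with doxycycline and 28.7 ± 3.33 without it (SD, n = 3), a difference of 39.8 (two-sided exact permutation test, p = 0.1). Both conditions had the caudal medium, with doxycycline in SOX2-ON alone. The study described different cell identities in these conditions, so SOX2 level cannot be told apart from cell state here. With 1 replicate number left out of both lines, for choosing and for comparing, the difference was 27.9 to 28.6 (exact permutation p = 0.333 each, the smallest for 2 libraries against 2).

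**Figure D4:**
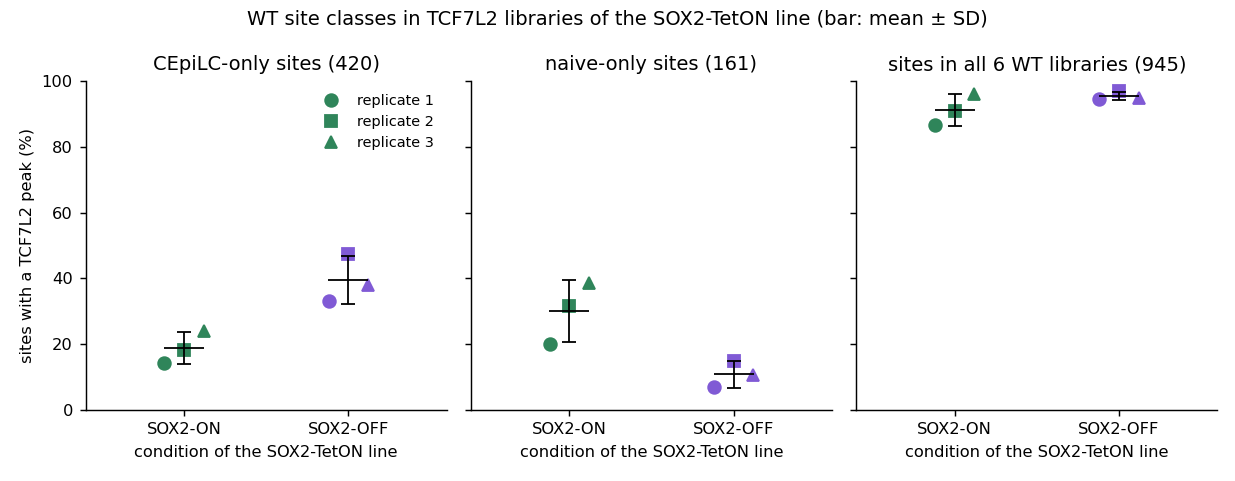
Share of sites of each wild-type class (vertical axis, %) with a TCF7L2 peak in SOX2-ON and SOX2-OFF cells (horizontal axis). Points are the 3 libraries of each condition and bars give the mean ± SD. CEpiLC-only sites were more often occupied in every SOX2-OFF library and naive-only sites in every SOX2-ON library.

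At the level of genes, a locus was a gene body with the 10000 bp upstream. Of 21938 protein-coding loci, 272 (1.24%) were CEpiLC-only, 112 (0.511%) naive-only and 1242 (5.66%) had a peak in all 6 libraries. The 9 gene lists, of 159 genes, had peaks more often than all loci: 66.7% (Nodal genes) to 100% (TCF/LEF genes) had a peak in any library, against 35.5%. Of the 7778 loci with a peak in any library, 3287 had one in more CEpiLC libraries and 2512 in more naive ESC libraries. Such counts for the lists below are to be read beside these. Of 9 lists, 4 held a CEpiLC-only locus and 2 a naive-only locus. Because folds also differ between libraries as a whole, the rank of a locus in its list is given where all 6 libraries had a peak. Of the 1242 such loci, 130 (10.5%) were nearer the top in every CEpiLC list and 127 (10.2%) in every naive ESC list. Of the 15 listed ones, 9 were nearer the top in every CEpiLC list (Axin2, Cdx1, Gbx2, Hes7, Hoxb13, Il17rd, Klf4, Sp5 and Znrf3) and 1 in every naive ESC list (Cdx2).

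**Figure D5:**
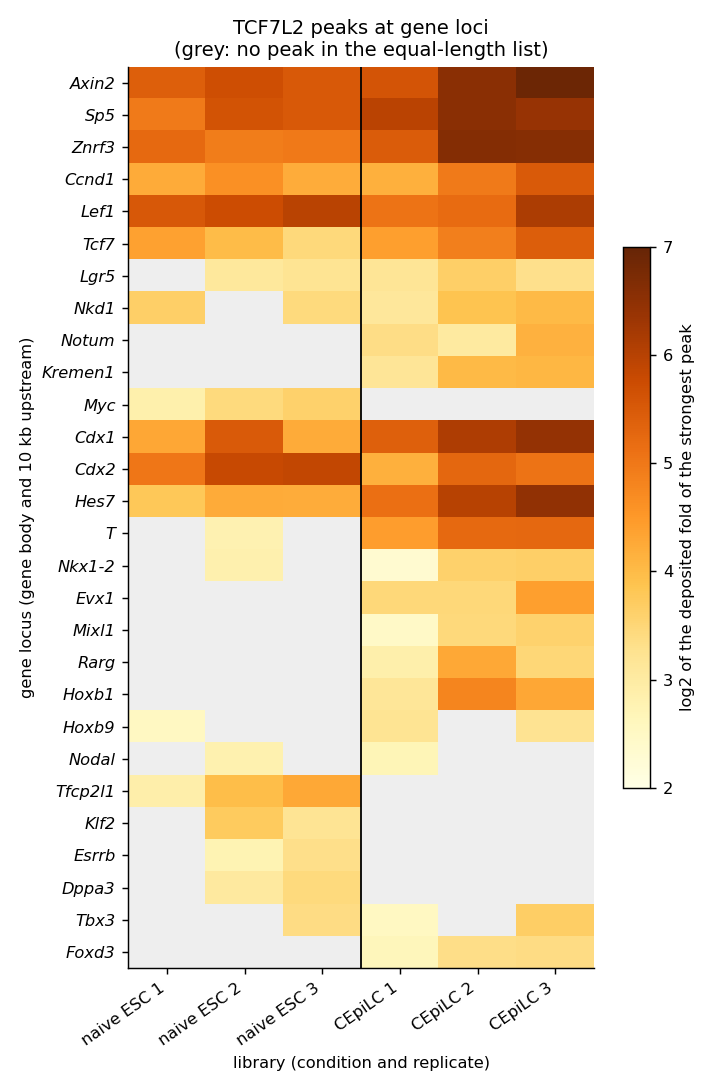
Log2 of the deposited fold of the strongest TCF7L2 peak (colour) at 28 gene loci (vertical axis) in the 6 libraries (horizontal axis), with grey for no peak in the equal-length list. Axin2, Sp5, Znrf3, Ccnd1, Lef1, Tcf7, Cdx1, Cdx2 and Hes7 had a peak in all 6, Notum, Kremen1, Evx1, Mixl1, Rarg, Hoxb1 and Foxd3 in CEpiLCs only, and Myc and Tfcp2l1 in naive ESCs only.

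Genes that damp the WNT pathway were bound in both states, and a few in CEpiLCs alone. Of 18 WNT feedback and target loci, 14 had a peak in any library, 4 in all 6 (Axin2, Ccnd1, Sp5 and Znrf3), 2 were CEpiLC-only (Kremen1 and Notum) and 1 naive-only (Myc). Axin2, a scaffold of the complex that destroys β-catenin, had folds of 42.2, 51.8 and 45.5 in naive ESCs and 48.6, 92.5 and 120 in CEpiLCs, at ranks 194, 143 and 123 against 15, 102 and 28. Sp5, a repressor of WNT targets, had 31.0, 49.5 and 45.3 against 61.8, 92.7 and 83.9, at ranks 331, 203 and 168 against 20, 158 and 130. Znrf3, a ubiquitin ligase that removes WNT receptors, had 37.8, 30.2 and 31.6 against 44.4, 98.5 and 97.0. The ranks did not overlap at these 3 loci, and the folds did so at Axin2 alone. Notum, an enzyme that inactivates WNT ligands, had a peak only in CEpiLCs, with 10.2, 8.17 and 17.6. Kremen1, a receptor for DKK inhibitors, had 8.97, 16.3 and 16.8 there and none in naive ESCs. Both were weak against Axin2, and the full naive ESC lists held a peak somewhere in each of these loci in 3 of 3 libraries. Myc, a growth regulator, had 7.24, 10.8 and 12.3 in naive ESCs and no peak in CEpiLCs. Its site was in the full list of CEpiLC replicate 2, at 3.64. Lgr5, a receptor of the WNT pathway, had no peak in naive ESC replicate 1, then 8.45 and 9.31, and 9.04, 12.5 and 9.89 in CEpiLCs. The CEpiLC folds lay at a CEpiLC-only site 1247 bp from its start, which had 3.58 in the full list of naive ESC replicate 2. The naive ESC peaks lay at other sites of the locus, nearer to the starts of other genes, each in 1 naive ESC library. Nkd1, an intracellular inhibitor, had 12.5, none and 10.9 against 8.61, 14.6 and 16.3.

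Among the TCF/LEF genes themselves, Lef1 and Tcf7 had a peak in all 6 libraries. Lef1 had folds of 46.1, 53.2 and 62.8 in naive ESCs and 33.9, 36.8 and 70.0 in CEpiLCs, which overlapped, as did the ranks. A weaker CEpiLC-only site lay 653 bp from its start. Tcf7, an activating member, had 20.7, 15.8 and 11 against 21.3, 29.5 and 43.1. Its folds did not overlap but its ranks, 446, 709 and 861 against 240, 555 and 308, did. Of 12 WNT ligand and receptor loci, 9 had a peak in any library, none was in a differential class and 6 had a peak in more CEpiLC than naive ESC libraries. The receptor gene Fzd10 had 7.67, 9.67 and none in naive ESCs and 24.8, 36.3 and 25.4 in CEpiLCs. Wnt3a, a ligand of the caudal epiblast, had no peak in any of the 6.

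The caudal and mesodermal loci held 4 of the 9 listed CEpiLC-only loci. Of 26, 23 had a peak in any library, 4 were CEpiLC-only (among them Evx1, Mixl1 and Rarg), none was naive-only and 16 had a peak in more CEpiLC than naive ESC libraries, against 3 in more naive ESC libraries. Among the 7778 loci with a peak in any library these were 3287 and 2512. T, the mesodermal T-box factor, had a single naive ESC peak of 6.90 in replicate 2 and folds of 21.4, 37.7 and 38.0 in CEpiLCs. Its promoter site was in all 3 full naive ESC lists, at 5.21, 6.90 and 3.76. Hes7, a segmentation clock repressor, had 13.8, 18.7 and 18.5 against 35, 63.3 and 88.0. Cdx1, a homeobox factor upstream of Hox genes, had 19.6, 44.8 and 18.9 against 41.9, 69.2 and 85.6, with overlapping folds but ranks of 583, 290 and 612 against 64, 229 and 124. Its relative Cdx2 went the other way in rank, with folds of 32.5, 55.8 and 57.6 against 17.9, 38.8 and 33.7 and ranks of 366, 227 and 145 against 495, 501 and 521. The homeobox gene Evx1 had 11, 11.2 and 21.2 in CEpiLCs, Mixl1 5.48, 11 and 12, and the retinoic acid receptor gene Rarg 7.33, 19.5 and 11.2. In the full naive ESC lists, the Evx1 site had 5.57 in replicate 3 and the Rarg site 4.65 in replicate 2. The Mixl1 site had 3.86 and 5.50 there in replicates 2 and 3, the latter above its 5.48 in CEpiLC replicate 1. The Rarg site lay in an intron with the start of Itgb7 nearest. Nkx1-2, a marker of the caudal epiblast, had 7.07 in naive ESC replicate 2 and 5.01, 12.3 and 12.6 in CEpiLCs. The peaks of replicate 2 of both conditions lay at its promoter, and the others at an intron site 1684 bp from its start. In the full lists the promoter site also had 5.72 in naive ESC replicate 3 and 6.87 in CEpiLC replicate 3. Tbx6 (11.4), Fgf8 (8.70) and Cyp26a1 (4.82) each had a peak in 1 CEpiLC library.

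Hox loci had peaks in more CEpiLC than naive ESC libraries, though few met the rule of 3 libraries against 0. Of 39, 32 had a peak in any library and 23 in more CEpiLC than naive ESC libraries, against 7 in more naive ESC libraries. Neighbouring Hox loci overlap and share peaks. Hoxb1 was the CEpiLC-only locus, with folds of 8.84, 28.0 and 19.5, and no peak overlapped its site in the full naive ESC lists. Hoxb13 was the one with a peak in all 6, at 4.79, 7.67 and 6.93 against 9.93, 15.2 and 25.7. Hoxb9 had 5.83 in naive ESC replicate 1 and 9.38 and 9.40 in CEpiLC replicates 1 and 3. Of 12 Nodal and early streak loci, 8 had a peak in any library and none was in a differential class. Nodal itself had 7.0 in naive ESC replicate 2 and 6.48 in CEpiLC replicate 1.

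Naive pluripotency loci leaned to naive ESCs. Of 22, 16 had a peak in any library, 1 was naive-only (Tfcp2l1), none was CEpiLC-only, and 9 had a peak in more naive ESC than CEpiLC libraries, against 3 in more CEpiLC libraries. Tfcp2l1, a transcription factor of naive cells, had folds of 7.42, 15.7 and 19.3 in naive ESCs. Klf2 (13.3 and 9.17), Esrrb (6.75 and 10.0), Dppa3 (8.30 and 10.8), Prdm14 (9.0 and 11.4) and Manba (11.4 and 12.7) had a peak in naive ESC replicates 2 and 3 and in no CEpiLC library. The first 4 of these encode proteins of the naive state. Their absence from replicate 1, whose median fold was the lowest of the 3, kept them out of the naive-only class. Gbx2 and Klf4, both targets of LIF signalling, were in all 6: Gbx2 had 13.0, 23.2 and 9.90 against 29.7, 69.2 and 53.9, and Klf4 12.9, 14.4 and 15.2 against 21.3, 28.9 and 25.4. These 2 ranked nearer the top in CEpiLCs. Nanog and Pou5f1 had no peak in any library, and Sox2 had 11.6 in CEpiLC replicate 2. Tbx3 had 10.4 in naive ESC replicate 3 against 5.84 and 12.7 in CEpiLC replicates 1 and 3, at different sites. Of 16 primed epiblast and neural loci, 14 had a peak in any library and 2 were CEpiLC-only, among them Foxd3, with 6.21, 10.1 and 10.3 at 3 different sites. Otx2 had 9.55 in CEpiLC replicate 3. Of 10 FGF and ERK feedback loci none was in a differential class. The FGF inhibitor gene Il17rd had 9.65, 16.4 and 12.4 against 21.7, 33.9 and 42.3.

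The summits of several of these loci carried the TCF sequence. The windows below show shared sites (Axin2, Sp5, Cdx2), sites stronger or found only in CEpiLCs (T, Mixl1, Hoxb1) and the naive-only site of Myc (GRCm38, plus strand, 151 bases around the summit or 30 for Sp5, capitals mark CTTTGAA or CTTTGAT on either strand):
Axin2 (chr11:108921178-108921328): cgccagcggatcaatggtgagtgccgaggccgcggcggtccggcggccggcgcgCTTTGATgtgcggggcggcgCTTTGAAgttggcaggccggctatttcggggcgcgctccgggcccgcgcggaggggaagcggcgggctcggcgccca
Sp5 (chr2:70475025-70475054): gtagcggcaaacTTCAAAGccataaatctt
Cdx2 (chr5:147304314-147304464): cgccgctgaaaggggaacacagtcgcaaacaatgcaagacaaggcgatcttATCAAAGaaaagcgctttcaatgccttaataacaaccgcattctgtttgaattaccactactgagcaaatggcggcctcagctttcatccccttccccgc
T (chr17:8434093-8434243): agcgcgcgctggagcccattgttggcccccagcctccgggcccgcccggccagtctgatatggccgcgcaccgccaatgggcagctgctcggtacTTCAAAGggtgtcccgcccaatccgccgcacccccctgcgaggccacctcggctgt
Mixl1 (chr1:180697044-180697194): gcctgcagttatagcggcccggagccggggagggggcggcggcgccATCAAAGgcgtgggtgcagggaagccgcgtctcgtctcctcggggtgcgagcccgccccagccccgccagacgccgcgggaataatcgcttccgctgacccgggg
Hoxb1 (chr11:96365489-96365639): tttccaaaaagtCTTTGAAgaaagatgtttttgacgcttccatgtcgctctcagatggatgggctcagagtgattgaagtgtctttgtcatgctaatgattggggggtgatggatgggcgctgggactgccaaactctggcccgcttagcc
Myc (chr15:61979009-61979159): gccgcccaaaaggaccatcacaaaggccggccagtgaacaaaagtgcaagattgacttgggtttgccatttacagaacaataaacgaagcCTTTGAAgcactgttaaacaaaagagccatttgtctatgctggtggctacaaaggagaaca
The Axin2 window held 2 matches close to the summit, and the Hoxb1 window 1 match near its left end. No match lay within 75 bp of the summits at Notum, Kremen1, Evx1, Rarg, Tfcp2l1, Klf2 and Esrrb.

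The strongest differential sites with no peak in any full list of the other condition had no gene of the lists as the nearest. In CEpiLCs these were an intron of Unc5a, a netrin receptor gene, with 34.3, 50.9 and 51.1, an intron of Vmn2r2, with 12.8, 47.1 and 47.0, and sites in or near Cxxc5 (23.8, 31.4 and 37.3), Basp1 (8.84, 37.6 and 31.3), Slc10a2 (14.6, 27.5 and 29.2) and Pdgfrb (8.85, 31.0 and 24.7). The Unc5a site had SOX2 and β-catenin in all 3 CEpiLC libraries of each, LEF1 and TCF7L1 in none, and no TCF7L2 peak in the SOX2-TetON line. The other 5 had β-catenin, LEF1 and TCF7L1 in 3 of 3 CEpiLC libraries. In naive ESCs they were an exon of Zmat3 (27.4, 54.5 and 44.2), introns of Filip1l (12.6, 85.0 and 43.2), Flvcr2 (8.65, 46.9 and 36.9) and Fancm (11.9, 30.8 and 34.1), and sites near Gbp2 (16.2, 41.1 and 31.5) and Nox3 (10.6, 40.7 and 25.8). Zmat3 held the CGCG core and had none of the other 4 proteins, whereas the other 5 had β-catenin and TCF7L1 in 3 of 3 naive ESC libraries. Replicate 1 was the lowest library at each of the 12 sites. The windows shown are 2 with the TCF sequence, 1 per cell state, and 2 that resemble each other (GRCm38, plus strand, capitals as above):
Basp1 (chr15:24851476-24851626): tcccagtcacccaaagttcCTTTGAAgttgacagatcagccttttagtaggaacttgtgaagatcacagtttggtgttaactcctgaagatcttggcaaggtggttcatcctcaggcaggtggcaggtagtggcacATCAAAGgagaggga
Fancm (chr12:65115000-65115150): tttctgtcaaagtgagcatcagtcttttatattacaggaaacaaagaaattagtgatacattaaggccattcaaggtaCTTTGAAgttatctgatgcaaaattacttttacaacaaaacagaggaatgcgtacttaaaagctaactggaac
Vmn2r2 (chr3:64121778-64121928): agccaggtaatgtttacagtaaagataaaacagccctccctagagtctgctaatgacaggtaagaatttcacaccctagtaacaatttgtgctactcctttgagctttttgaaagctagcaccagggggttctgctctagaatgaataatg
Slc10a2 (chr8:5448292-5448442): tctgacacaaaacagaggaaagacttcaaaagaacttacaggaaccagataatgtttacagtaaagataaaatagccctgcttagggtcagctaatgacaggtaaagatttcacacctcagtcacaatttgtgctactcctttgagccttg
The Vmn2r2 and Slc10a2 windows, on different chromosomes, matched at 95 of 109 aligned bases (87.2%). Reads from such copies may be placed at either, so these 2 sites are uncertain. Repeats covered most of the window at 15.2% of CEpiLC-only, 15.5% of naive-only and 1.38% of shared sites, against 11.5% over all sites.

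Replicate 1 of both conditions also carried peaks over exons of transcription factor genes. In the lists of 4134, exons of Tcf7l1 held 10 peaks in naive ESC replicate 1 (highest fold 61.6) and 9 in CEpiLC replicate 1 (53.2), and none in replicates 2 and 3. Exons of Tfap2c held 6 and 5 in replicate 1 and none in the others. Those of Tfap2a held 7 in each replicate 1, with highest folds of 197 and 23.7, and 0 to 2 elsewhere. Exons of Tcf7l2 held 13 peaks in CEpiLC replicate 1 (highest fold 17.3) and none in naive ESC replicate 1. Folds at these 4 loci in replicate 1 are therefore not set against the other replicates here. Replicate 1 of the SOX2-TetON line had them too: exons of Tfap2a held 7 peaks in SOX2-ON (highest fold 337) and 7 in SOX2-OFF (96.2), those of Tfap2c 6 (142) and 6 (47.2), and those of Tcf7l1 9 (113) and 11 (65.4), against at most 1 in replicates 2 and 3. The part of these peaks in the values of replicate 1 was not tested.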

How the data were processed

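Chromatin had been fixed with DSG and PFA, and the authors processed single-end reads of 76 bp with an nf-core ChIP-seq pipeline (BWA). Peaks were called per library with MACS2 against mm10 (submitters' processing notes) at q below 0.05. The deposited narrowPeak columns are the summit fold, a ratio to control, the −log10 p-value and the −log10 q-value. Read counts were not used, so the study's count test could not be repeated. Of 60 peak files, 36 were used (12 for TCF7L2, 24 for the other proteins) and 24, of other groups, were not.

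Lists were ranked by −log10 p-value, reduced to 4134 peaks and merged into sites where peaks shared at least 1 bp. Genes came from GENCODE M21 and sequence from GRCm38 (Python 3.11.15, pandas 2.3.3, numpy 2.4.6, pysam 0.24.0). Libraries were the unit of two-sided exact permutation tests, with Benjamini-Hochberg adjustment, after tests on simulated data. The smallest p was 0.1 for 3 against 3. Replicates came from separate experiments.

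Members, sequences and gene lists were chosen with earlier results of these data known. Named genes are the listed loci with peaks in 3 of 3 against 0 of 3 libraries, a fixed set of loci, and the 6 strongest sites per class. CTCGCGAG and TCTCGCG, the rank order of loci, and further named loci (among them Znrf3, Hes7, Gbx2, Klf4, Fzd10, Dppa3 and the exon peaks) were chosen after their values were seen. Alternatives changed list length, sequence window, locus, promoter distance, the absence rule and the replicates entered. The alternatives that leave out core or promoter peaks were added after seeing the data. Some listed loci are not reported here.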

Additional observations from a re-analysis of the deposited data

How the results depend on the processing

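The limits are the unknown depth, lists of very unequal length, and 3 libraries per condition, with which no exact test can pass 0.05. A weak peak could be missing because a library was shallow, and the lists do not show this. The replicate numbers were not taken to pair the samples, since deviations of same-numbered libraries correlated at 0.05, 0.058 and -0.014, although the exon peaks of replicate 1 were shared between conditions. With the replicate block the differences were unchanged by construction (19.7 for the promoter share, 39.8 for the SOX2-TetON line, 0.0825 for the Jaccard index) and the smallest exact p was 0.25.

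CEpiLC-only and naive-only sites numbered 61 and 50 with 1000 peaks per library, 646 and 341 with all deposited peaks, 125 and 66 with absence taken from the full lists, and 1133 and 528 with 2 of 3 libraries as enough. CEpiLC-only sites were 179 with 2000 peaks and 270 without promoter peaks. Leaving out replicates gave 443 to 928 and 171 to 456. Of single libraries, the largest shifts came without CEpiLC replicate 2 (746 CEpiLC-only) and without naive ESC replicate 1 (400 naive-only) or 3 (278). Without the peaks holding the CGCG core there were 396 and 146. Locus counts were 2 and 1 with all deposited peaks and 459 and 234 with 50000 bp each side, and the CEpiLC-only loci 115 with 2000 peaks and 411 by nearest start. Leaving out replicates gave 469 to 667 and 224 to 293. Fewer libraries to satisfy raise these counts by construction.

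The Jaccard difference was -0.00852 with all deposited peaks. Sequence shares whose difference (percentage points) changed sign were: TCF, -0.659 with 2000 peaks, -1.25 with a 250 bp window and -2.55 to 5.57 without a replicate (-0.43 without replicate 3); OCT, 0.0444 with all peaks; KLF, -0.348 with 2000 peaks, -0.284 without promoter peaks and -0.0227 to 0.538 without a replicate; T, 0.335 with 2000 peaks, 0.212 with a 50 bp window and 0.375 without promoter peaks; CDX, 0.143 and TEAD, 1.14 without promoter peaks, with TEAD -0.642 to 0.0267 without a replicate; and CTCF, 0.0681 with all peaks, 0.431 with 250 bp, 0.0905 without the core, 0.201 without promoter peaks and -0.278 to 0.269 without a replicate. The cause was not tested. The SOX share (-11.0 to -2.88), promoter share (12.1 to 22.8), class indices (5.36 to 11.37) and SOX2-TetON difference (18.5 to 49.1) kept their direction in every alternative run, but with all deposited peaks the libraries overlapped for the SOX share (exact permutation p = 0.3) and the promoter share (p = 0.8). Listed loci nearer the top in every CEpiLC list were 7 to 12, and in every naive ESC list 1 to 2.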
